A study of Mus musculus with 12 samples.

Results

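Nonsense-mediated decay (NMD) is the pathway that removes mRNAs on which translation ends too early. The 9 genes described here encode its main factors: the kinase Smg1 with its partners Smg8 and Smg9, the core factors Upf1, Upf2, Upf3a and Upf3b, and the effectors Smg5 and Smg6. They were chosen by gene symbol in the deposited tables of 20409 genes, and all 9 were found there. The rule held no measured value, but earlier results of these data were known when the genes were chosen.

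The data come from ORFtag screens in mouse embryonic stem cells. Here a retrovirus carries a promoter, the coding sequence of a tag and a splice donor into the genome. The transcript it starts splices into the next exon downstream, so that the cell makes a tagged protein. The tag was driven by the PGK promoter, and vectors for all 3 coding frames were mixed. All cells were diploid and wild type apart from a reporter and, in 1 line, CreERT2, and each reporter line was 1 clone. The screen named PTGR looked for proteins that act on mRNA. Its Puro-IRES-GFP-10xBoxB reporter was integrated at random, its line carried CreERT2, and the tag was λN, which binds the boxB sites in the reporter mRNA. These cells were sorted repeatedly for low GFP with growth in between, treated with 4-hydroxytamoxifen so that Cre removed the boxB sites, and sorted once more for GFP that had come back. The activator screen (reporter 7xTetO-pMYLPF-Puro-IRES-GFP, cells sorted for high GFP) and the repressor screen (reporter pEF1-BFP-7xTetO-pPGK-Puro-IRES-GFP, cells sorted for low GFP) had their reporters in a locus of stable expression and used the DNA-binding TetR tag. Each screen had 2 sorted and 2 unsorted libraries, 12 in all. The measurements are positions in genomic DNA, so the cell type itself could not be checked from marker genes.

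In NMD, the helicase Upf1 gathers on mRNAs whose ribosome stops upstream of an exon junction complex, and Upf2 and the Upf3 proteins bridge it to that complex. Smg1, held with Smg8 and Smg9 in one complex, phosphorylates Upf1. Phosphorylated Upf1 is then bound by Smg6, an endonuclease that cuts the mRNA, and by Smg5, which helps to bring in decapping and deadenylation enzymes. Mouse embryos that lack one of several of these factors do not survive.

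An insertion was assigned to a gene only through the acceptor of the nearest downstream exon that was not a first exon, so the acceptor decides how much of the protein follows the tag. The acceptors below are given 5′ to 3′ on the strand of the gene. In the enriched genes most sorted insertions led to exon 2. Over all unsorted cells each acceptor shown was the commonest of its gene, except Smg1 exon 32 and Smg9 exon 7. These were the commonest later ones. Each sequence holds 20 intronic and 6 exonic bases of the GRCm38 assembly, and capitals mark the AG at the end of the intron.
Smg1 exon 2, chr7:118213047-118213072, minus strand: attttctttttctttttcAGaactga
Smg1 exon 32, chr7:118168997-118169022, minus strand: tcttttccctgtcatggcAGtgcata
Smg9 exon 2, chr7:24403372-24403397, plus strand: aacctccttgttccttccAGgtgacc
Smg9 exon 7, chr7:24414919-24414944, plus strand: cctcattttcctcctcacAGagcgta
Smg8 exon 2, chr11:87083740-87083765, minus strand: atgatggttacactttccAGgagaaa
Upf2 exon 2, chr2:5957451-5957476, plus strand: acattcttttattcttacAGgttgtc
Smg5 exon 2, chr3:88341838-88341863, plus strand: ggctctttgtttcactgcAGggctgt
Smg6 exon 9, chr11:74981832-74981857, plus strand: tctccctttttcccatgcAGctgaac
All 933 insertions assigned to the 9 genes pointed at an exon edge of the transcript model with the lowest number of each gene in GENCODE vM21, and all 52 acceptors used had AG at this place. Exon 2 of Smg9 and exon 2 of Upf2 hold the start codon, so a fusion there in the right frame would carry the whole protein of 520 and 1269 residues. The lists do not give the frame of the vector at each insertion. Exon 2 of Smg1 leaves out the first 28.7 of 3658 residues and exon 2 of Smg5 the first 24.7 of 1017, the fractions being codons split by the intron. The later acceptors leave shorter proteins, of 2070 residues from Smg1 exon 32 and 286 from Smg9 exon 7. Smg6 exon 9 leaves 532 of 1418 residues, and Smg8 exon 2 leaves 404 of 991.

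Counts below are distinct positions at most 200 kb from the assigned exon. The sorted libraries held 14705 to 60980 of them and the unsorted libraries 54088 to 233799, and values per 10000 are relative to these totals. The background is the sum of the 6 unsorted libraries, 1022126 insertions. Libraries of 1 screen shared positions: 19.5% of those in PTGR sorted replicate 1 were also in PTGR unsorted replicate 1, and 6.98% of those in sorted replicate 2 were in unsorted replicate 2. Such cells are not independent events, so intervals and standard errors given here cover counting error only.

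In the PTGR screen 4 of the 9 genes passed the call of the study design, a one-sided Fisher's exact test with adjusted p below 0.001 where the log2 odds ratio also reached 1. They were Smg1, Smg9, Upf2 and Smg5, where 0.666% of the 9303 genes tested passed. Of the other 5, Smg6, Upf1 and Upf3b were tested and did not pass, and Smg8 and Upf3a had no sorted insertion and were not tested. Summed over the 9 genes there were 29.9 insertions per 10000 in the PTGR sorted libraries against 5.54 in the background. The median log2 odds ratio of the 7 genes tested was 1.74, that of Upf2, against 0.14 over all genes tested. Genes were tested only with at least 3 PTGR sorted insertions, so this median leaves out the 2 members without any. With these 2 placed lowest, the middle value of the 9 was 0.36, that of Smg6. It has no like value over all genes here.

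**Figure D1:**
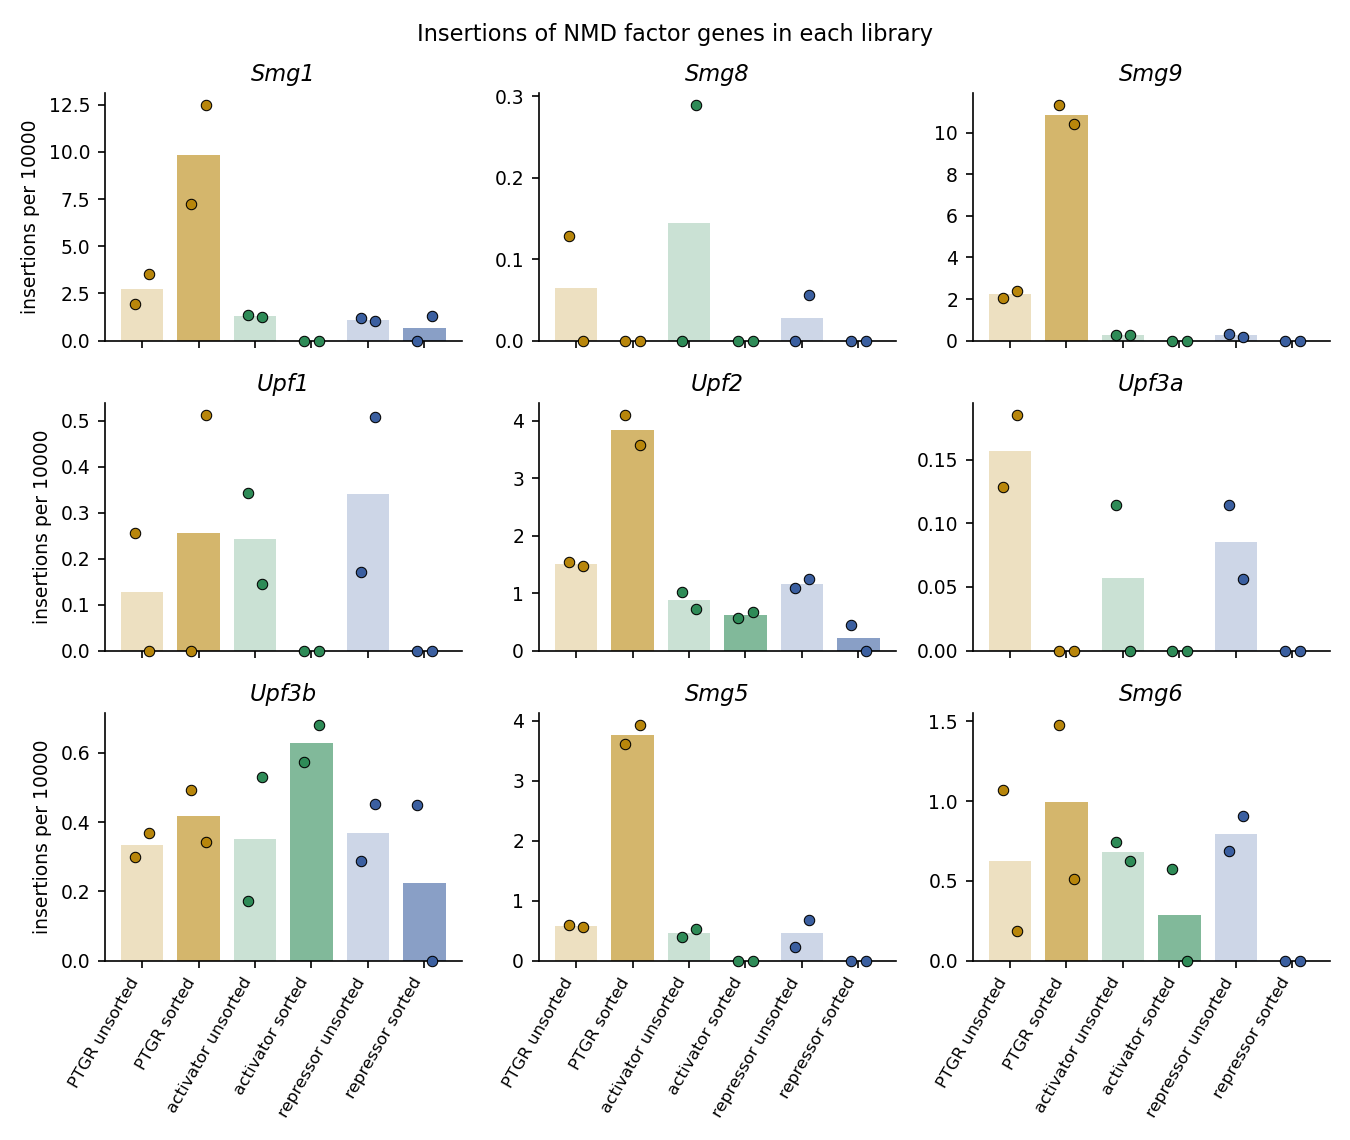
Insertions per 10000 (y axis, own scale in each panel) of the 9 genes in the 6 groups (x axis), with points for the 2 replicates and bars for their mean. In Smg1, Smg9, Upf2 and Smg5 both PTGR sorted libraries lie above all other libraries, with 7.22 and 12.5 per 10000 in Smg1 and 11.3 and 10.4 in Smg9.

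The kinase complex was represented by 2 of its 3 subunits. Smg1, the kinase itself, is on chromosome 7 from 118131308 to 118243670 on the minus strand. The PTGR sorted libraries held 44 and 73 insertions in it (7.22 and 12.5 per 10000). The PTGR unsorted libraries held 46 and 19 (1.97 and 3.51 per 10000), and the 4 unsorted libraries of the other screens 18 to 26 (1.02 to 1.37 per 10000). Both sorted values were above all 6 unsorted values, and the PTGR unsorted values were above the other 4. The mean was 9.84 ± 3.71 per 10000 (SD, n = 2) in the sorted libraries and 1.72 ± 0.936 (SD, n = 6) in the background, a ratio of 5.72. The log2 odds ratio was 2.70 ± 0.18 (SE), and Fisher's exact test gave an adjusted p of 7.13e-41.

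Smg9, which binds Smg1 and Smg8 in the complex, lies on chromosome 7 from 24399619 to 24422778 on the plus strand. It had 69 and 61 insertions in the PTGR sorted libraries (11.3 and 10.4 per 10000). The PTGR unsorted libraries had 48 and 13 (2.05 and 2.40 per 10000), and the other 4 unsorted libraries only 3 to 6 each (0.170 to 0.344 per 10000). The replicates were closer to each other than in Smg1, and neither sorted value overlapped any unsorted one. The mean was 10.9 ± 0.635 per 10000 (SD, n = 2) against 0.924 ± 1.02 (SD, n = 6), a ratio of 11.8. Its log2 odds ratio was 3.78 ± 0.20 (SE), the largest of the 9 genes against this background, and Fisher's exact test gave an adjusted p of 2.87e-69.

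The log2 odds ratio of Smg9 moved with the background more than that of any other member called. It was 2.36 ± 0.22 (SE) against the 2 PTGR unsorted libraries, 4.70 without PTGR unsorted replicate 1, and 5.32 ± 0.35 against the 4 unsorted libraries of the other screens, a background chosen after the data were seen. For Smg1 the same backgrounds gave 2.12, 2.84 and 3.01. Both genes passed under each of them, where 0.430% of genes did against the PTGR unsorted and 0.795% against the other unsorted libraries.

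Smg8, the third subunit, restrains the kinase together with Smg9. It is a gene of 4 exons on chromosome 11 from 87077732 to 87086774. It had 0 insertions in 119540 PTGR sorted insertions, which allows up to 0.251 per 10000. The background held 10 insertions (0.0978 per 10000), and 1.17 sorted insertions would have matched it, so a lower level was not detectable at this depth. The upper end of the 95% interval of its log2 odds ratio was 1.93. All 10 background insertions led to exon 2, where the fusion keeps 40.8% of the protein.

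Among the core factors only Upf2 passed. Upf2, the adaptor between Upf1 and the Upf3 proteins, is on chromosome 2 from 5951469 to 6056703 on the plus strand. It had 25 and 21 insertions in the PTGR sorted libraries (4.10 and 3.59 per 10000). In the 6 unsorted libraries it had 8 to 36 insertions, which is 0.722 to 1.54 per 10000, and the 2 highest of these were the PTGR libraries. The sorted mean of 3.84 ± 0.363 per 10000 (SD, n = 2) was 3.25 times the background mean of 1.18 ± 0.305 (SD, n = 6). Upf2 had a log2 odds ratio of 1.74 ± 0.25 (SE), and Fisher's exact test gave an adjusted p of 7.23e-08. The call was lost against the 2 PTGR unsorted libraries (1.33, adjusted p = 0.00248) and without PTGR sorted replicate 1 (1.64, adjusted p = 0.00192), in the same exact test.

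Upf1, the helicase at the centre of the pathway, had 0 and 3 insertions in the PTGR sorted libraries and 27 in the background. Its log2 odds ratio of -0.07 had a 95% interval from -2.44 to 1.63, which left room for a ratio above the threshold of 1 at this depth. Upf3b, the X-linked adaptor to the exon junction complex, had 3 and 2 sorted and 36 background insertions, a log2 odds ratio of 0.25 (95% interval -1.46 to 1.60). Its paralog Upf3a had 0 sorted and 9 background insertions (0.0881 per 10000), again below what a count of 0 allows, and the interval of its log2 odds ratio ended at 2.12.

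The effectors differed in their counts. Smg5, which recruits decay enzymes to phosphorylated Upf1, is on chromosome 3 from 88336260 to 88362338 on the plus strand. It had 22 and 23 insertions in the PTGR sorted libraries (3.61 and 3.93 per 10000) against 3 to 14 in the unsorted libraries (0.230 to 0.678 per 10000). Its PTGR unsorted values, 0.599 and 0.555 per 10000, were within the range of the other 4. The sorted mean of 3.77 ± 0.226 per 10000 (SD, n = 2) was 7.56 times the background mean of 0.498 ± 0.160 (SD, n = 6). Smg5 had a log2 odds ratio of 2.92 ± 0.30 (SE), and Fisher's exact test gave an adjusted p of 5.15e-17.

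Smg6, the endonuclease, lies on chromosome 11 from 74925823 to 75164448, the longest of the 9 genes at 238.6 kb. It had 9 and 3 insertions in the PTGR sorted libraries (1.48 and 0.512 per 10000) and 80 in the background. Its 6 unsorted values ran from 0.185 to 1.07 per 10000 and overlapped the sorted ones. The log2 odds ratio of 0.36 (95% interval -0.65 to 1.24) did not pass, and its adjusted p in Fisher's exact test was 0.765. The difference between Smg5 and Smg6 was not tested.

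By log2 odds ratio against the 6 unsorted libraries the order was Smg9, Smg5, Smg1 and Upf2. Against the 2 PTGR unsorted libraries Smg5 came first (2.67), then Smg9 (2.36), Smg1 (2.12) and Upf2 (1.33). The intervals that follow are those against all 6. The 95% interval of Smg9 began at 3.37, below the upper end of that of Smg5 at 3.52. That of Smg1, from 2.34 to 3.06, lay within that of Smg5. That of Upf2, from 1.21 to 2.24, ended below that of Smg1.

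**Figure D2:**
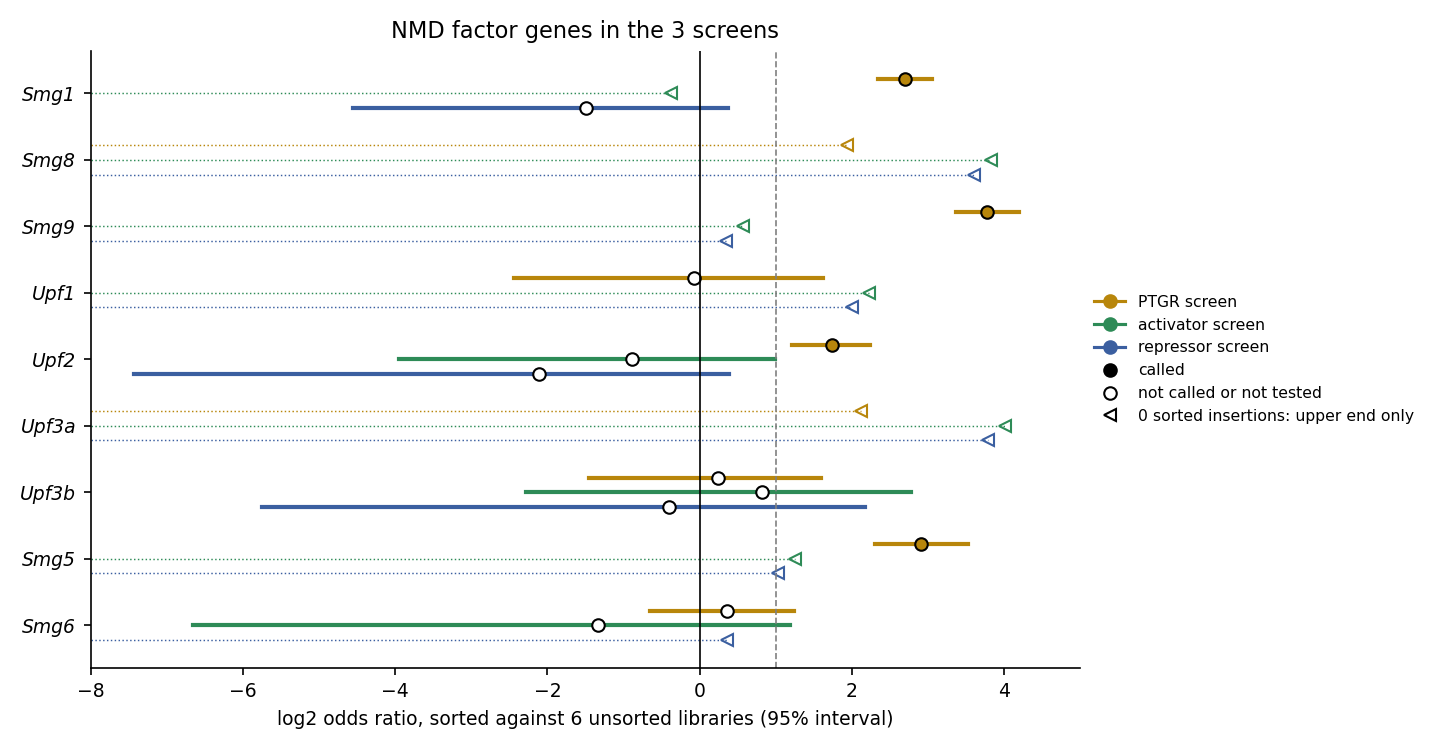
Log2 odds ratio of sorted against the 6 unsorted libraries (x axis, lines for 95% intervals) for the 9 genes (y axis) in the 3 screens, filled where called. Arrowheads mark the upper end where no sorted insertion was found, and the dashed line is the threshold of 1. The 4 filled points, from 1.74 in Upf2 to 3.78 in Smg9, are all from the PTGR screen.

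Replicate spread entered through edgeR, whose quasi-likelihood test set the 2 sorted PTGR libraries against the 2 unsorted ones. At an adjusted p below 0.05, 3 of the 9 genes had more sorted insertions, where 0.290% of 9303 genes did. The edgeR log2 fold change was 1.91 for Smg1 (adjusted p = 0.0244), 2.25 for Smg9 (adjusted p = 0.00163) and 2.57 for Smg5 (adjusted p = 0.0125). Upf2 had an edgeR log2 fold change of 1.25 and did not pass (adjusted p = 0.831). Without PTGR unsorted replicate 1, or without PTGR unsorted replicate 2, 0 of all 9303 genes passed in edgeR with more sorted insertions, so these fits made no such call in any gene. The edgeR log2 fold changes in them were 2.17 and 2.28 for Smg9, 2.72 and 2.51 for Smg5, and 1.48 and 2.19 for Smg1. Smg1 did not pass without PTGR sorted replicate 2 (edgeR log2 fold change of 1.43, adjusted p = 0.0880).

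The other screens asked whether the same proteins act on a reporter gene when brought to DNA. In the activator screen the 9 genes together had 5 sorted insertions, 2 in Upf2, 2 in Upf3b and 1 in Smg6, and none reached the 3 insertions needed for the test. In that screen 4.64% of 2842 genes tested passed. In the repressor screen they had 4, namely 2 in Smg1, 1 in Upf2 and 1 in Upf3b, again too few for the test, and 8.18% of 2346 genes tested passed. Their summed level was 1.56 per 10000 in the activator and 1.07 in the repressor sorted libraries, both below the background of 5.54. A count of 0 allowed up to 0.935 per 10000 in the activator and 0.801 in the repressor sorted libraries, and only the backgrounds of Smg1 (1.51 per 10000) and Upf2 (1.15 per 10000) were above both limits.

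The sorted libraries were also compared directly, the 2 of the PTGR screen against the 4 of the others. Smg9 had 130 insertions against 0, Smg1 had 117 against 2, Upf2 had 46 against 3 and Smg5 had 45 against 0. These 4 of the 9 genes passed a two-sided Fisher's exact test at an adjusted p below 0.001, where 0.645% of genes had more in PTGR. Only genes with at least 3 PTGR sorted insertions were tested, so entry depended on the side where these genes were high. The comparison also takes no account of differences between the screens before sorting. Between PTGR and other unsorted libraries the log2 odds ratio was 2.96 in Smg9, 0.90 in Smg1, 0.60 in Upf2 and 0.35 in Smg5. The adjusted p was 4.33e-19 for Smg1 in this exact test. Smg6 had 12 against 1 and Upf3b 5 against 3, and neither passed. For Upf2 the call was lost without PTGR sorted replicate 1 (adjusted p = 0.00117), repressor sorted replicate 1 (0.00172) or repressor sorted replicate 2 (0.00150), in the same exact test.

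A contrast over all 12 libraries tested whether the difference of sorted from unsorted in the PTGR screen was larger than its mean in the other 2 screens. In edgeR it passed for Smg1 (adjusted p = 4.45e-05), Smg5 (adjusted p = 0.00404) and Smg9 (adjusted p = 0.0457), 3 of the 9 genes, where 0.742% of 9303 genes passed. Upf2 did not pass (edgeR adjusted p = 0.114). Genes entered the contrast only with at least 3 PTGR sorted insertions, that is, through the group in which the genes that passed were high. The fitted sizes are not given because Smg5 and Smg9 had no sorted insertion in the other screens. Smg9 lost the call in 11 of the 12 fits that left out 1 library, all but the one without PTGR unsorted replicate 2, with edgeR adjusted p up to 0.162. It also lost it with the replicate number as a block (edgeR adjusted p = 0.0884). Smg5 lost it without repressor unsorted replicate 2 (edgeR adjusted p = 0.0616), and Smg1 in none of the 12.

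The cassette has to lie in the sense direction of a gene to tag it, and the strand-reversed lists give the same count for the wrong direction. Smg8, Upf1 and Upf3a had 1, 1 and 2 reversed insertions in the PTGR sorted libraries, fewer than the 3 needed, and were not tested. None of the other members was enriched for reversed insertions in the PTGR screen, where 0.500% of 9204 genes tested were. At this share, no call among so few genes says little. Smg1 had 9 reversed insertions in the PTGR sorted libraries and 125 in the background. Smg9 had 4 and 20, Smg5 had 4 and 48, and Upf2 had 10 and 102. Of sense and reversed insertions together, the sense ones made up 92.9% in Smg1, 97.0% in Smg9, 91.8% in Smg5 and 82.1% in Upf2 in the sorted libraries. In the background these shares were 55.2%, 80.2%, 51.5% and 53.6%, so each was lower without sorting.

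Within Smg1 and Smg9 a larger share of the sorted insertions than of the background led to exon 2. For each gene, insertions at its commonest background exon were set against those at other exons. In Smg1, 109 of 117 sorted insertions (93.2%, 95% Wilson interval 87.1 to 96.5) led to exon 2, against 84 of 154 in the background (54.5%, 46.7 to 62.2). In Smg9 it was 128 of 130 (98.5%, 94.6 to 99.6) against 62 of 81 (76.5%, 66.2 to 84.4). These 2 of the 9 genes passed a two-sided Fisher's exact test at an adjusted p below 0.05, where 0.225% of 7103 genes did. The adjusted p was 2.42e-09 for Smg1 and 3.49e-04 for Smg9 in this exact test. Against the PTGR unsorted libraries alone, where the shares were 81.5% in Smg1 and 93.4% in Smg9, neither gene passed.

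Exon 32 of Smg1 and exon 7 of Smg9, shown above, were the commonest of the other exons in the background. In the background 40 insertions of Smg1 led to exon 32 and 12 to exon 31, against 2 and 1 in the sorted libraries. In Smg9, 13 background insertions led to exon 7 and none of the sorted ones. Fusions at exon 32 would keep 56.6% of Smg1, and those at exon 7 would keep 55.1% of Smg9.

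Exon use also differed among unsorted cells. In the PTGR unsorted libraries 53 of 65 Smg1 insertions (81.5%) led to exon 2, against 31 of 89 (34.8%) in the unsorted libraries of the other screens. In Smg9 it was 57 of 61 (93.4%) against 5 of 20 (25.0%). Both differences passed a two-sided Fisher's exact test over 8799 genes with an adjusted p of 1.78e-05, where 0.0909% of genes did. This comparison was added after the data were seen. Against the PTGR unsorted libraries alone, neither gene passed in the sorted libraries (adjusted p = 1 in the exact test), with differences of 11.6 and 5.02 percentage points. Smg9 also lost the exon call without PTGR sorted replicate 1 (adjusted p = 0.0735 in the exact test).

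**Figure D3:**
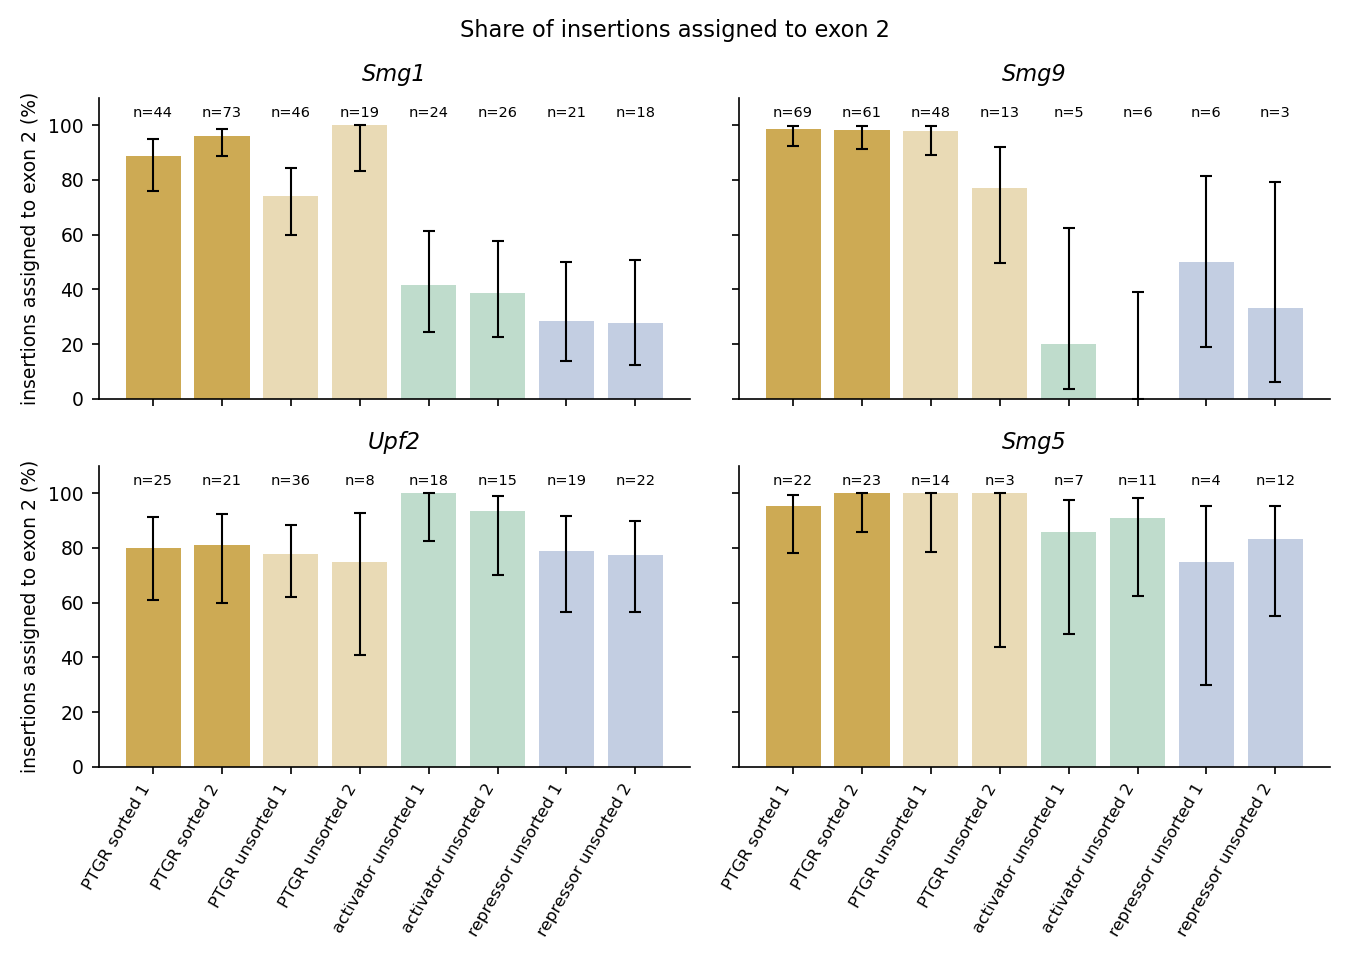
Percent of insertions assigned to exon 2 (y axis) in each library with insertions of Smg1, Smg9, Upf2 and Smg5 among the PTGR sorted and all unsorted libraries (x axis). Bars are shares, lines 95% Wilson intervals, n the number of insertions. In Smg1 the 4 PTGR libraries range from 73.9% to 100%, and the 4 other unsorted libraries from 27.8% to 41.7%.

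In the other genes the shares lay closer together or rested on fewer insertions. In Upf2, 37 of 46 sorted and 98 of 118 background insertions led to exon 2, and 8 and 10 led to exon 3. In Smg5 it was 44 of 45 and 46 of 51 at exon 2. In Smg6 the commonest background exon was exon 9, with 31 of 80 insertions, and 6 of 12 sorted insertions led there. Only 10 of the 80 background insertions of Smg6 led to exon 2, so in unsorted cells most tags of the endonuclease would sit on a C-terminal part of it. Neither these nor the differences of Upf1 and Upf3b passed the same exact test (adjusted p = 1 for each).

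The exon of an insertion was assigned from its position, so positions and exon use are not separate results. In the 4 unsorted libraries of the other screens, 58 of 89 Smg1 insertions led to later exons, and these lay 70.5 to 83.2 kb downstream of the transcript start. Within 2 kb of the start lay 9 of those 89 insertions (10.1%), against 32 of 65 (49.2%) in the PTGR unsorted and 72 of 117 (61.5%) in the PTGR sorted libraries. In Smg9, 4 of 20 (20.0%), 37 of 61 (60.7%) and 87 of 130 (66.9%) lay within 2 kb of the start. Of the sorted insertions, 92 of 117 in Smg1, 91 of 130 in Smg9, 31 of 46 in Upf2 and 34 of 45 in Smg5 lay upstream of the transcript start. Of the rest, the first intron held 17 in Smg1, 37 in Smg9 and 9 in Smg5, and in Upf2 it held 6, with 9 further downstream.

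**Figure D4:**
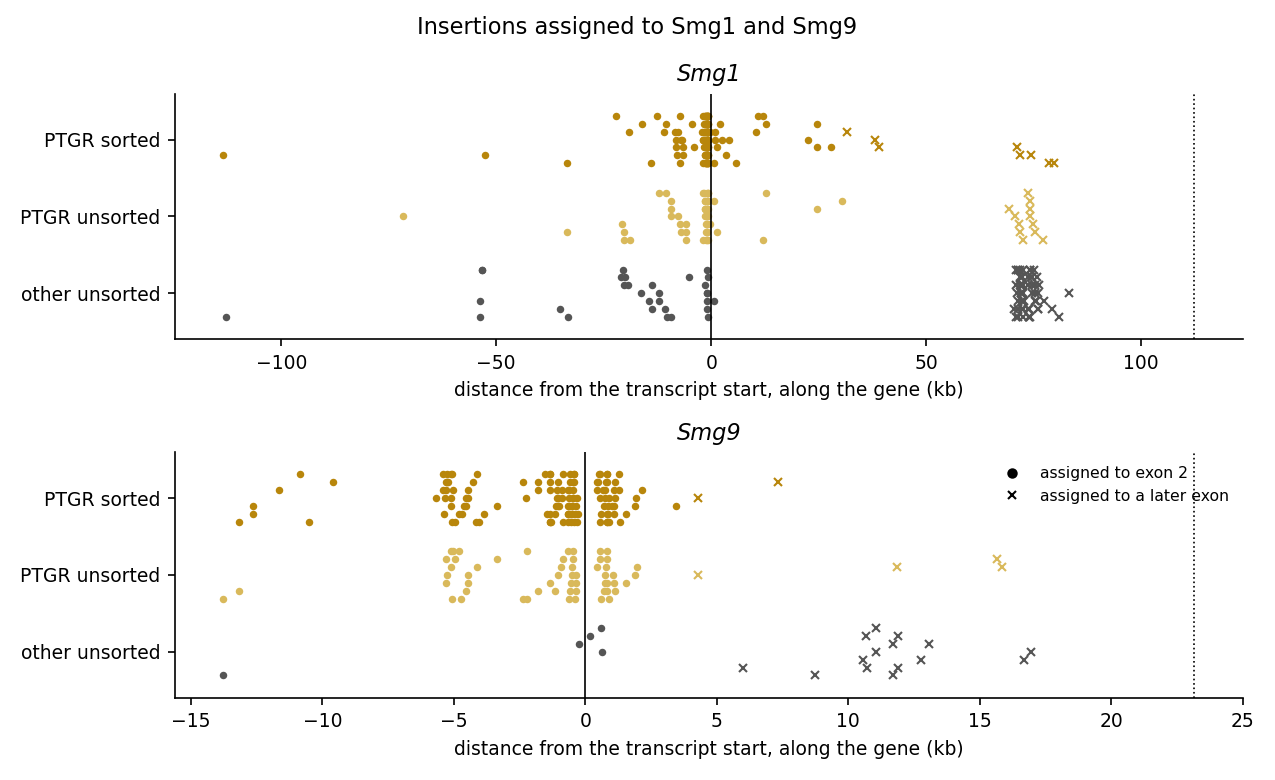
Position of each insertion assigned to Smg1 and Smg9 relative to the transcript start (x axis, kb along the gene, start at the solid line, gene end at the dotted line) in 3 groups of libraries (y axis). Points are assigned to exon 2 and crosses to later exons. The unsorted libraries of the activator and repressor screens hold most of the crosses, 58 in Smg1 and 15 in Smg9.

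Some of these positions were found in several PTGR libraries. Of the 108 distinct PTGR sorted positions in Smg1, 9 were in both sorted libraries and 32 were also in a PTGR unsorted library, which held 62 positions in all. In Smg9 it was 7 and 32 of 123, with 61 unsorted positions. In Upf2, 5 of 46 sorted positions were also unsorted and in Smg5 6 of 45, and none was in both sorted libraries. Over all genes, 395 of the 60980 positions in sorted replicate 1 were in sorted replicate 2.

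The level of Smg9 in the PTGR unsorted libraries was itself above that in the other unsorted libraries, with 61 insertions against 20. The log2 odds ratio was 2.96 ± 0.37 (SE), and Fisher's exact test gave an adjusted p of 2.38e-14, where 0.203% of 12296 genes tested passed. In edgeR the log2 fold change was 2.81 (adjusted p = 4.59e-07), where 0.138% of genes passed. Smg1 had 65 against 89, a log2 odds ratio of 0.90 that did not pass (adjusted p = 0.0197 in the exact test, with the threshold at 0.001). Positions also seen in a sorted library were then left out of the unsorted ones. Smg9 had 29 against 20, a log2 odds ratio of 1.95. It did not pass (adjusted p = 0.00227 in the exact test), where 0.0746% of genes did. Smg1 had 30 against 86, a log2 odds ratio of -0.11. In both genes this filter took insertions mostly from the PTGR side, where sorted cells were enriched. A fall was therefore built in, and the lost call cannot tell where the excess came from. The exon use of Smg9 still differed, with 26 of 29 against 5 of 20 at exon 2 (adjusted p = 0.0232 in the exact test), where 0.0348% of genes did. That of Smg1, with 18 of 30 against 29 of 86, did not pass (adjusted p = 0.946 in the exact test). Before the filter it was 53 of 65 against 31 of 89, so the filter removed exon 2 insertions mostly from the PTGR side. The lost difference in Smg1 therefore cannot tell whether exon use was alike.

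In the PTGR screen, leaving out the sorted positions found in any other library gave log2 odds ratios of 2.32 for Smg1, 3.50 for Smg9, 3.01 for Smg5 and 1.83 for Upf2. All 4 passed Fisher's exact test, where 0.698% of the genes tested did.

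Related genes were read from lists of further NMD factors and of exon junction and cap-binding proteins. Of 10 further NMD and termination factors, 9 were in the tables, 8 were tested in the PTGR screen and none passed. Over all genes tested 0.666% passed, so no call among 8 does not set these factors apart from other genes. Gspt1, the release factor eRF3, had 7 and 6 insertions in the sorted libraries and 136 in the background (log2 odds ratio -0.29), and Mov10, an RNA helicase, had 3 and 3 against 113 (-1.14). In the activator and repressor screens 2 of the 9 were tested in each and none passed, where 4.64% and 8.18% of genes did.

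Of the 8 exon junction and cap-binding genes, 2 were tested in the PTGR screen and 1 passed, where 0.666% of genes did. Casc3, a component of the exon junction complex, had 8 and 7 sorted insertions (1.31 and 1.20 per 10000) and 13 in the background (0.127 per 10000). Its log2 odds ratio was 3.30 ± 0.55 (SE), which passed Fisher's exact test (adjusted p = 4.23e-06) but not edgeR (adjusted p = 0.265). Ncbp1, the large cap-binding subunit, had 1 and 2 against 5 and did not pass. Eif4a3, the helicase of the complex, had 1 sorted insertion against 40 in the background, and Ncbp2 had 0 against 6.

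Over the 12 libraries, the genes nearest to each called member were sought among 3588 genes with at least 10 PTGR sorted insertions, by Euclidean distance of log2(insertions per 10000 + 0.1). For Smg9 they were Maco1 (distance 3.09, with 86 and 59 PTGR sorted and 71 background insertions) and Trim26 (3.45, with 43 and 44 against 57). For Smg1 they were Trim25 (3.23) and Zc3h4 (3.37). For Smg5 they were Atl1 (2.18) and Sel1l3 (2.55), and for Upf2 Cidea (1.53) and Hnrnpl (1.72). The PTGR log2 odds ratios of these 8 genes ran from 0.64 in Hnrnpl to 4.13 in Maco1.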

How the data were processed

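Insertion sites of the ORFtag cassette were read by inverse PCR and sequencing from genomic DNA of 12 libraries. The authors trimmed reads (Trim Galore 0.6.0 per the labels), aligned them to mm10 with Bowtie2, removed duplicates and low-quality reads (SAMtools 1.9) and gave every insertion the closest exon downstream of it, first exons left out. They deposited 24 insertion lists (sense and strand-reversed, with position, exon number and distance) and 3 tables of counts per gene pooled over libraries. The authors' odds ratios and p-values in these tables were not used. The deposited counts of the PTGR sorted libraries equalled the listed insertions, repeats included, in 20407 of 20409 genes, and those of the unsorted libraries the distinct positions in 20224.

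Each position was counted once per library, which mattered where positions were listed more than once (all of them in the repressor unsorted libraries, 12.7% in PTGR sorted replicate 2). A gene was tested with at least 3 sorted insertions, summed over replicates against the 6 unsorted libraries, by Fisher's exact test, with p-values adjusted (Benjamini-Hochberg) over all genes tested. edgeR 4.0.16 (R 4.3.3, TMM normalization) and DESeq2 1.42.0 used the same counts per library, and scipy 1.17.1 the exact tests. The study calls the replicates biological, and the labels name no separate cultures, so edgeR and DESeq2 p-values measure the spread between these libraries. Those of Fisher's exact test come from summed libraries and hold no spread between replicates, only counting error. With 2 against 2 libraries an exact permutation test cannot reach p below 0.05. The scripts were tested on simulated data. Shares have 95% Wilson intervals, log2 odds ratios 95% exact intervals, and a count of 0 allows up to 3. Gene models are GENCODE vM21, and sequences come from the RefSeq copy of GRCm38.

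The 9 members and the gene lists were chosen with earlier results of these data known. Named genes are the members, list genes that passed or had most background insertions, and the 2 genes nearest to each called member. The values of 1 list gene are not reported here. Alternatives were another background, every listed row, merged positions within 10 bp, 50 kb, other minima and thresholds, libraries left out, and a replicate block. The background of the other screens, the comparison among unsorted libraries, leaving shared positions out of the unsorted ones, and exon use without each unsorted library were added after the data were seen.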

Additional observations from a re-analysis of the deposited data

Results flagged for a closer look

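The difference of sorted from unsorted libraries was larger in the PTGR screen than its mean over the activator and repressor screens for 3 of the 9 genes, by the edgeR contrast over all 12 libraries. Only genes with at least 3 PTGR sorted insertions entered this contrast. The edgeR adjusted p was 4.45e-05 for Smg1, 0.00404 for Smg5 and 0.0457 for Smg9. The call of Smg9 was lost in 11 of the 12 fits that left out 1 library (edgeR adjusted p up to 0.162) and with the replicate number as a block (0.0884), and that of Smg5 without repressor unsorted replicate 2 (0.0616). In all 3 genes both PTGR sorted libraries were above all unsorted libraries. Of the 4 sorted libraries of the other screens, repressor sorted replicate 2 held 2 insertions in Smg1, and there were no others in these genes.

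The unsorted libraries of the PTGR screen differed from those of the other screens in Smg9, with 2.05 and 2.40 insertions per 10000 against 0.170 to 0.344, a log2 odds ratio of 2.96 ± 0.37 (SE). Beside this, 32 of the 61 distinct Smg9 positions in the PTGR unsorted libraries were also found in a PTGR sorted library, and 57 of 61 insertions led to exon 2. Leaving out positions shared with a sorted library gave a log2 odds ratio of 1.95, but in Smg9 this took positions from the PTGR side alone. The part of shared positions in the difference was not tested.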

How the results depend on the processing

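In the PTGR screen 4 of the 9 genes were called under 9 other settings of counting, minimum, threshold or background, and 3 against its own unsorted libraries. Among the 9 settings, leaving positions shared with sorted libraries out of the background takes insertions of enriched genes away from it and is no check of the calls. The number was 3 to 4 with 1 library left out and 0 at the same threshold in edgeR, which 9 of 9303 genes (0.0967%) passed. At an unadjusted edgeR p below 0.05, 164 genes had more sorted insertions. In edgeR at an adjusted p below 0.05, 0 to 3 of the 9 genes passed with 1 PTGR library left out. Over all genes 0 of 9303 passed without either unsorted library, 32 of 5926 without sorted replicate 1 and 28 of 6329 without sorted replicate 2. DESeq2 gave 3 of the 9 (lowest adjusted p of 7.21e-06 in Smg9), where 0.836% of 3351 genes passed. The contrast between screens gave 1 to 3 genes with 1 library left out and 2 with at least 1 insertion, and DESeq2 gave no adjusted p for the 9 genes in it. PTGR against other sorted libraries gave 3 to 4. Exon use differed in 1 to 2 genes with 1 library left out, and in 0 against the PTGR unsorted libraries. With all libraries, 0.742% of genes passed the contrast, 0.645% had more in PTGR than in other sorted libraries and 0.225% differed in exon use. The excess among PTGR unsorted libraries was called in 1 gene, where 0.203% of genes passed. It was called in 0 with positions shared with sorted libraries left out, where 0.0746% passed. In that gene, Smg9, this filter took insertions from the PTGR side alone and is no check of the excess. In the activator and repressor screens the 9 genes had too few sorted insertions to be tested, so most settings could not call them. With a minimum of 1 sorted insertion, Fisher's exact test covered 3 of the 9 in each screen and called 0. With at least 1 insertion in edgeR all 9 were tested and 0 passed, where 115 of 16827 genes passed in the activator and 74 of 16435 in the repressor screen.

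Direction changed only in results that had not passed their test. The log2 odds ratio of Smg1 among unsorted libraries became -0.11 with shared positions left out. The log2 odds ratio of Upf1 was 0.27 against the PTGR unsorted libraries, 0.042 with positions within 10 bp merged and 0.22 with shared sorted positions left out, and ran from -0.23 to 0.96 with 1 library left out. With 1 library left out, the log2 odds ratio of Smg6 ran from -0.61 to 0.92. The edgeR log2 fold change then ran from -0.15 to 3.66 in Upf1 and from -0.91 to 2.31 in Smg6, and the edgeR contrast of Upf3b from -0.29 to 2.59. For exon use, sorted minus background in percentage points, Upf2 gave 3.16 and Smg5 -2.22 against the PTGR unsorted libraries, and Upf2 ran from -4.93 to 0.43 with 1 library left out. The cause of these changes was not tested.

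With the replicate number as a block, 3 of the 9 genes passed in edgeR in the PTGR screen, where 0.333% of 9303 genes did. In the contrast 2 did, where 0.419% of genes did, and Smg9 no longer passed (edgeR adjusted p = 0.0884). The labels do not say that a number marks a shared transduction. As a hint from the data, PTGR sorted replicate 1 shared 11868 positions with unsorted replicate 1 and 242 with unsorted replicate 2, and sorted replicate 2 shared 4089 with unsorted replicate 2 and 1132 with unsorted replicate 1. In the activator screen both sorted libraries also shared more with their own number, but repressor sorted replicate 1 shared 1892 with unsorted replicate 1 and 2230 with unsorted replicate 2. Deviations of equally numbered libraries correlated with r = 0.24 in the PTGR, 0.07 in the activator and 0.02 in the repressor screen over 4771 genes, which are not independent replicates. Depth limits Smg8, Upf3a, Upf1 and Upf3b, with 9 to 36 background insertions each.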

Other observations

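Casc3 had another layout than the 4 enriched NMD factors. None of its 15 PTGR sorted insertions lay upstream of the transcript start, 6 lay in the first intron and 9 further downstream. In the background 8 of 13 lay in the first intron and 5 further downstream. The activator sorted libraries held 1 Casc3 insertion and the repressor sorted libraries none.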
